A study of Homo sapiens with 6 samples.

Results

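The E2F and DP transcription factors were described in HK-2 cells, an immortalized human proximal tubular line, with and without knockdown of the chromatin remodeler INO80. The family was taken as the 10 rows of the gene table whose symbol is E2F1 to E2F8, TFDP1 or TFDP2, out of 57905 genes in the table. All 10 passed the filter on low counts that left 15343 genes for testing, so none was lost to it. Poly-A selected RNA was sequenced from 3 libraries of cells that received a non-targeting control siRNA pool and 3 libraries of cells that received an siRNA pool against INO80, all harvested at 48 h. The cells of both groups are listed as wild type. HK-2 cells were immortalized with papillomavirus oncogenes. Among their products is a protein that acts on the pocket proteins that restrain E2F factors, so both groups carry that background. No label says whether the 3 libraries of a group came from separate cultures, and the p-values measure only the spread between these libraries, which may be technical.

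E2F proteins bind the promoters of genes needed for entry into S phase, and most of them do so as a pair with a DP protein. E2F1, E2F2 and E2F3 are the classical activators, E2F4 and E2F5 mostly repress together with pocket proteins, E2F6 represses without pocket proteins as part of a polycomb complex, and E2F7 and E2F8 are atypical repressors that need no DP partner. In the tubule E2F factors are known mainly from cell cycle re-entry after injury, and E2F1 is also known for inducing apoptosis genes.

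The knockdown was checked first. INO80 was at 46.3, 49.3 and 54.0 CPM (counts scaled to library size with edgeR's TMM factors) in replicates 1, 2 and 3 of control siRNA, and at 13.8, 12.05 and 14.2 CPM in the INO80 siRNA libraries. The groups did not overlap, and the fit gave a log2 fold change of -1.90 (adjusted p = 0.000161, edgeR, with a standard error of 0.0956). Between 16829273 and 23784599 reads were counted on genes per library. Same-numbered libraries of the 2 groups tended to deviate from their group means in the same direction, most of all those numbered 1. For that reason a fit blocked on that number was run beside the fit on treatment alone. Which members were called, and how many genes of the related lists, is given from both. Most values of single genes in the related lists are from the blocked fit only.

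When replicate numbers were blocked, E2F1 rose and both DP genes fell under INO80 siRNA, while the other 7 members gave no call in either fit. In the fit on treatment alone, 0 of the 10 members had an adjusted p under 0.05, against a background of 0.261% of the tested genes called higher and 1.49% called lower. In that fit 3 members had an unadjusted p under 0.05, and the share of all tested genes below that value is not given here. DESeq2 without the block called 1 member, E2F1, and 610 of 29137 genes over all. In limma on log2(FPKM + 0.1), 0 members and 76 of 15343 genes were called. With the replicate block, edgeR called 1 member higher (E2F1) and 2 lower (TFDP1 and TFDP2). That fit called 11.4% of all tested genes higher and 13.4% lower, so 1 of 10 and 2 of 10 lie near the background. The median log2 fold change over the 10 members was 0.02, beside 0.01 over all tested genes. Because the samples are bulk cultures, a change in the share of cycling cells and a change in RNA per cell cannot be told apart.

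**Figure D1:**
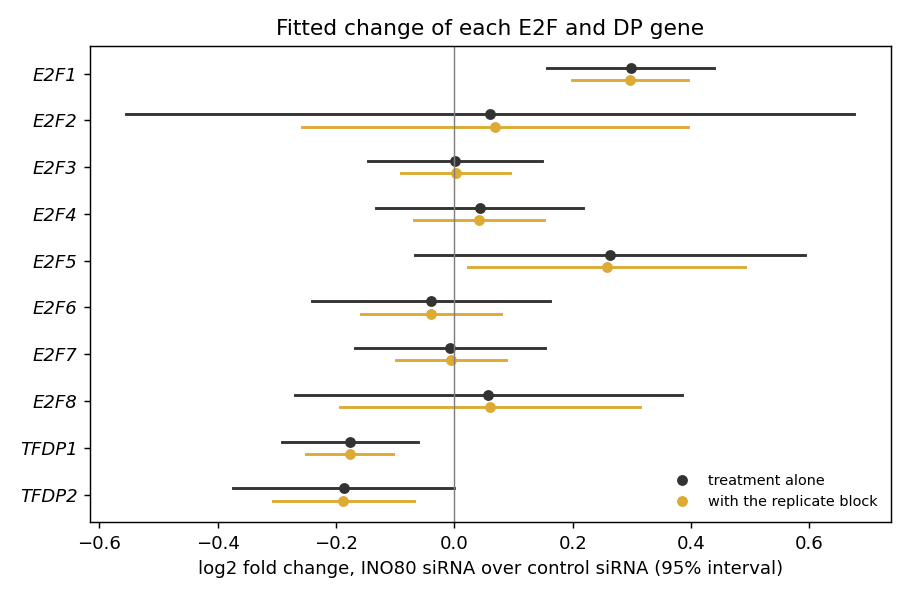
Fitted log2 fold change (INO80 siRNA over control siRNA, x axis) of the 10 genes, with the 95% interval as a bar, from the fit on treatment alone and from the fit with the replicate block. The blocked intervals of E2F1, TFDP1 and TFDP2 do not reach 0 and passed the adjusted threshold, and that of E2F5 does not reach 0 but did not pass it.

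The levels of the family were compared per length, as FPKM (fragments scaled to exon length and library total). TFDP1, the main DP partner, was the highest at 58.4 ± 1.87 FPKM (SD, n = 3) under control siRNA. By mean FPKM over all 6 libraries of both groups, as for each rank given here, it ranked 746 of the 15343 tested genes. E2F1 followed with 26.0 ± 1.85 FPKM at rank 1635. E2F4 with 19.4 ± 2.11 and E2F3 with 18.1 ± 1.33 FPKM came next, and the ranges of their control values overlapped. Within each control library E2F4 was the higher, at 17.42 against 16.83, 19.28 against 17.87 and 21.63 against 19.46 FPKM in replicates 1, 2 and 3. The difference between these neighbours was not tested. Below them stood E2F7 at 11.9 ± 0.604 FPKM, E2F6 at 9.65 ± 0.715 FPKM and TFDP2 at 3.70 ± 0.208 FPKM. The lowest were E2F8 at 1.76 ± 0.278 FPKM, E2F5 at 1.41 ± 0.0666 FPKM and E2F2 at 0.79 ± 0.278 FPKM, the last at rank 12582. Under INO80 siRNA the order of the 10 means was the same. There the values of E2F8 and E2F5 overlapped and those of E2F4 and E2F3 did not. The FPKM rest on the length of all annotated exons of a gene, which ran from 2503 bases for E2F1 to 11895 bases for TFDP2, so a gene that uses a short transcript is understated.

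**Figure D2:**
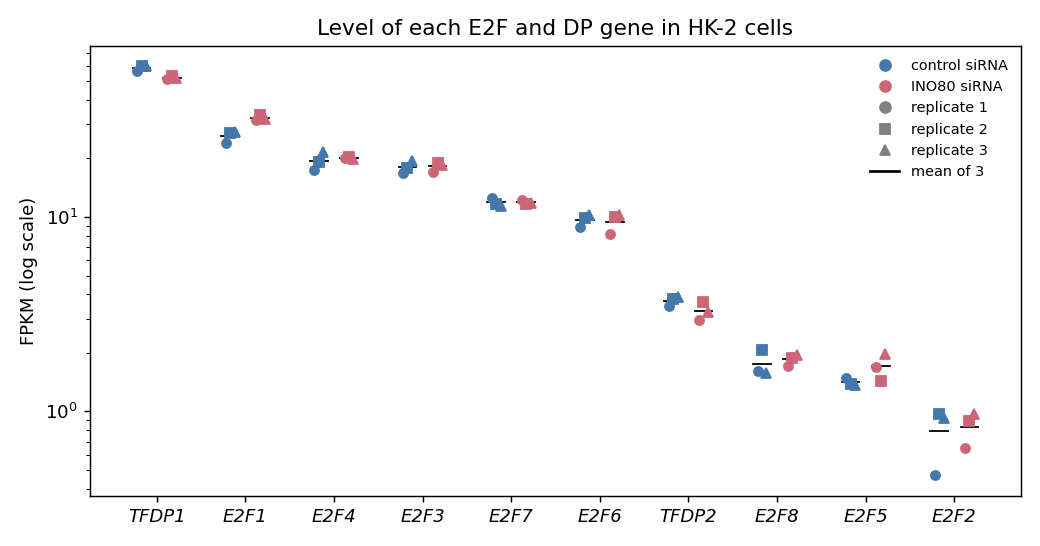
FPKM (y axis, log scale) of each E2F and DP gene (x axis, ordered by the control mean) in the 3 control siRNA and 3 INO80 siRNA libraries, with the mean of 3 as a bar and the replicate number as the marker shape. The family spans from under 1 FPKM for E2F2 to over 50 FPKM for TFDP1, and replicate 1 is the lowest point of E2F2 in both groups.

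E2F1 (ENSG00000101412, chromosome 20, 32263489 to 32274210, minus strand, GRCh37) encodes the activator best known for driving both S phase genes and apoptosis genes. Its level under control siRNA was 61.4, 66.9 and 67.9 CPM in replicates 1, 2 and 3, compared with 80.9, 82.0 and 78.35 CPM under INO80 siRNA. Every INO80 siRNA library was above every control library, and the rise was seen in 3 of 3 pairs, with log2 ratios of 0.40, 0.29 and 0.21. With the block the fold was 1.23 (95% interval 1.15 to 1.31, adjusted p = 4.06e-05, edgeR), and without it the adjusted p was 0.0566 (log2 fold change 0.30, with a standard error of 0.0619). The exact two-sided permutation p was 0.1, the smallest that 3 libraries against 3 allow. Non-overlapping higher values were found in 1 of the 10 members and in 11.3% of all tested genes. Over the 18 alternatives the log2 fold change of E2F1 stayed between 0.25 and 0.34, and its adjusted p passed 0.05 in 9 of them.

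The bases before the transcription start of E2F1 are shown with those of TFDP1, TFDP2 and E2F3, because the first 3 are the members called with the block and E2F3 is an activator whose level hardly moved. The sequences are the 250 bases before the start in RefSeq (build GRCh38.p14), printed 5′ to 3′ on the strand of the gene, and end at the base just before the start. Capitals mark the E2F consensus, searched on both strands as its 4 forms TTTCCCGC, TTTCGCGC, TTTGCCGC and TTTGGCGC. They lie at chr20:33686386-33686635 (minus strand), chr13:113584503-113584752 (plus), chr3:142149545-142149794 (minus, the most upstream of 3 starts listed for TFDP2) and chr6:20401629-20401878 (plus, the more upstream of 2 starts listed for E2F3).
E2F1: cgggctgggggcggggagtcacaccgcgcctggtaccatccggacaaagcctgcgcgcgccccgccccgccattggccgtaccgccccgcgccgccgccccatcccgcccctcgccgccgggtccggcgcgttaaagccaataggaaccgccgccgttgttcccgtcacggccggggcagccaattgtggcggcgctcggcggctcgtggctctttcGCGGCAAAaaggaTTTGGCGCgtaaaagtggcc
TFDP1: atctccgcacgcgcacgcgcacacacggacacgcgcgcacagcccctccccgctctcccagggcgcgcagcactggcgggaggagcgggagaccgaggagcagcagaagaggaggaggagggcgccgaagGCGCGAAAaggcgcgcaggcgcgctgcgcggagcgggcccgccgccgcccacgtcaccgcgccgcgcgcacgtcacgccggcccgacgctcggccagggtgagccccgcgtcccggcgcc
TFDP2: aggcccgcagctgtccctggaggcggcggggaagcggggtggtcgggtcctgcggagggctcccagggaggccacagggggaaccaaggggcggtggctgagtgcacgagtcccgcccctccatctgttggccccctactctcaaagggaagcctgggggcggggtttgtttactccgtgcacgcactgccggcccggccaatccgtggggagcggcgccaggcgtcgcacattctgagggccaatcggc
E2F3: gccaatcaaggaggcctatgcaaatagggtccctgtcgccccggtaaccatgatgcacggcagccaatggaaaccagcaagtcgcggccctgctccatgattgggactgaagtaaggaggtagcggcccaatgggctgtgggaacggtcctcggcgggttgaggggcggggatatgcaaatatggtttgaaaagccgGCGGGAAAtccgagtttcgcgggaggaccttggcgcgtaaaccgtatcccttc

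E2F1 held 2 matches, TTTGCCGC on the opposite strand from -33 to -26 and TTTGGCGC on its own strand from -20 to -13, where -1 is the base before the start. TFDP1 held TTTCGCGC on the opposite strand from -120 to -113, E2F3 held TTTCCCGC on the opposite strand from -53 to -46, and E2F2 held TTTGGCGC on its own strand from -42 to -35. The windows searched run from 250 bases before to 50 bases after the start. None of the 4 forms was found in the windows of E2F4, E2F6, E2F7 and TFDP2 or in the other window of E2F3. Among all 35116 windows of the same length, 3.31% held at least 1 match, and 0.145% held 2 or more. RefSeq windows were matched for 8 of the 10 members, and those of E2F5 and E2F8 were not used here. The matches describe letters only, and members with a match include E2F1, called higher with the block, TFDP1, called lower, and E2F2 and E2F3, which were not called.

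The other activators were measured without a detectable difference. E2F3 (chromosome 6, 20402398 to 20493941, GRCh37), which is required for normal S phase entry in many cells, was at 82.5, 84.8 and 92.3 CPM under control siRNA and at 83.4, 89.4 and 87.0 CPM under INO80 siRNA. The values interleaved, and the blocked log2 fold change was 0.00 with a 95% interval of -0.09 to 0.09 (adjusted p = 0.986, edgeR), which leaves out a change as large as that of E2F1. E2F2 was counted only 43 to 126 times per library, and its level was 2.62, 5.29 and 5.07 CPM under control siRNA and 3.63, 4.76 and 5.20 CPM under INO80 siRNA. Replicate 1 was the lowest library of both groups, at 0.5065 of the mean of the other control libraries and 0.729 of the mean of the other INO80 siRNA libraries. The blocked interval of E2F2 ran from -0.26 to 0.39 on the log2 scale (adjusted p = 0.806, edgeR). A change as large as that of E2F1 lies within this interval and is not left out.

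Neither E2F4 nor E2F5, the repressor E2Fs that work with pocket proteins, was called in either fit. E2F4 (chromosome 16, 67226072 to 67232821, GRCh37) was at 64.0, 68.7 and 77.0 CPM under control siRNA and at 74.3, 71.7 and 70.1 CPM under INO80 siRNA. The INO80 siRNA values lay within the control range, with a blocked log2 fold change of 0.04 (95% interval -0.07 to 0.15, adjusted p = 0.629, edgeR). E2F5 was at 9.03, 8.13 and 8.07 CPM under control siRNA and at 10.35, 8.41 and 11.5 CPM under INO80 siRNA. It was higher in 3 of 3 pairs but the groups overlapped, and the blocked log2 fold change of 0.26 (95% interval 0.02 to 0.49) had an adjusted p of 0.103 (edgeR). Without the pair of replicate 3 that log2 fold change was 0.12 (adjusted p = 0.652, edgeR). Without the pair of replicate 2 it was 0.36 (adjusted p = 0.061, edgeR). The E2F5 gene overlaps C8orf59 on the opposite strand, which had 400 to 675 counts per library against 148 to 278 for E2F5. The strand setting of the counting is not given in the sources used here, so reads of the overlap may have been given to either gene.

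E2F6, the polycomb-linked repressor, was at 37.0, 39.65 and 41.4 CPM under control siRNA and at 34.2, 39.75 and 40.9 CPM under INO80 siRNA. Replicate 1 was the lowest library in both groups, and the blocked log2 fold change was -0.04 (95% interval -0.16 to 0.08, adjusted p = 0.675, edgeR). The atypical repressors E2F7 and E2F8 are themselves known as E2F targets that limit E2F1. E2F7 was at 81.3, 72.8 and 71.7 CPM under control siRNA and at 78.9, 72.5 and 73.2 CPM under INO80 siRNA. Its blocked log2 fold change was -0.01 (95% interval -0.10 to 0.09, adjusted p = 0.949, edgeR), so the difference seen for E2F1 lay outside the interval for E2F7. E2F8 was much lower, at 6.89, 8.57 and 6.52 CPM under control siRNA and at 7.26, 7.70 and 7.93 CPM under INO80 siRNA. With 113 to 192 counts per library its blocked interval was wide, from -0.19 to 0.31 on the log2 scale (adjusted p = 0.777, edgeR).

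Both DP genes fell with the replicate block, and TFDP1 did so without overlap between the groups. TFDP1 (ENSG00000198176, chromosome 13, 114239013 to 114295785, plus strand, GRCh37) was at 217.4, 222.7 and 222.6 CPM under control siRNA and at 197.4, 197.0 and 191.9 CPM under INO80 siRNA. Each of the 3 pairs was lower, and the spread within a group (SD 3.04 and 3.06 CPM) was small beside the difference. The blocked fold was 0.885 (95% interval 0.841 to 0.930, adjusted p = 0.000522, edgeR), while the fit on treatment alone gave an adjusted p of 0.129 (log2 fold change -0.18, with a standard error of 0.0503). Non-overlapping lower values were found in 1 of the 10 members and in 11.5% of all tested genes. The exact two-sided permutation p was 0.1, again the smallest possible.

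TFDP2 (ENSG00000114126, chromosome 3, 141663277 to 141868386, minus strand, GRCh37), the second DP gene, was at 42.3, 44.5 and 45.7 CPM under control siRNA and at 36.0, 42.7 and 37.7 CPM under INO80 siRNA. The groups overlapped through INO80 siRNA replicate 2, and each pair was lower, with log2 ratios of -0.24, -0.06 and -0.28. The blocked fold was 0.878 (95% interval 0.808 to 0.954, adjusted p = 0.0185, edgeR), against an adjusted p of 0.303 for treatment alone. Without the pair of replicate 3 the blocked adjusted p of TFDP2 was 0.229, and DESeq2 with the block gave 0.175. The call of TFDP2 therefore rests on edgeR with the block and on the libraries numbered 3. TFDP3, a further gene of the DP family, had 0 counts in every library, which allows up to 3 counts each.

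**Figure D3:**
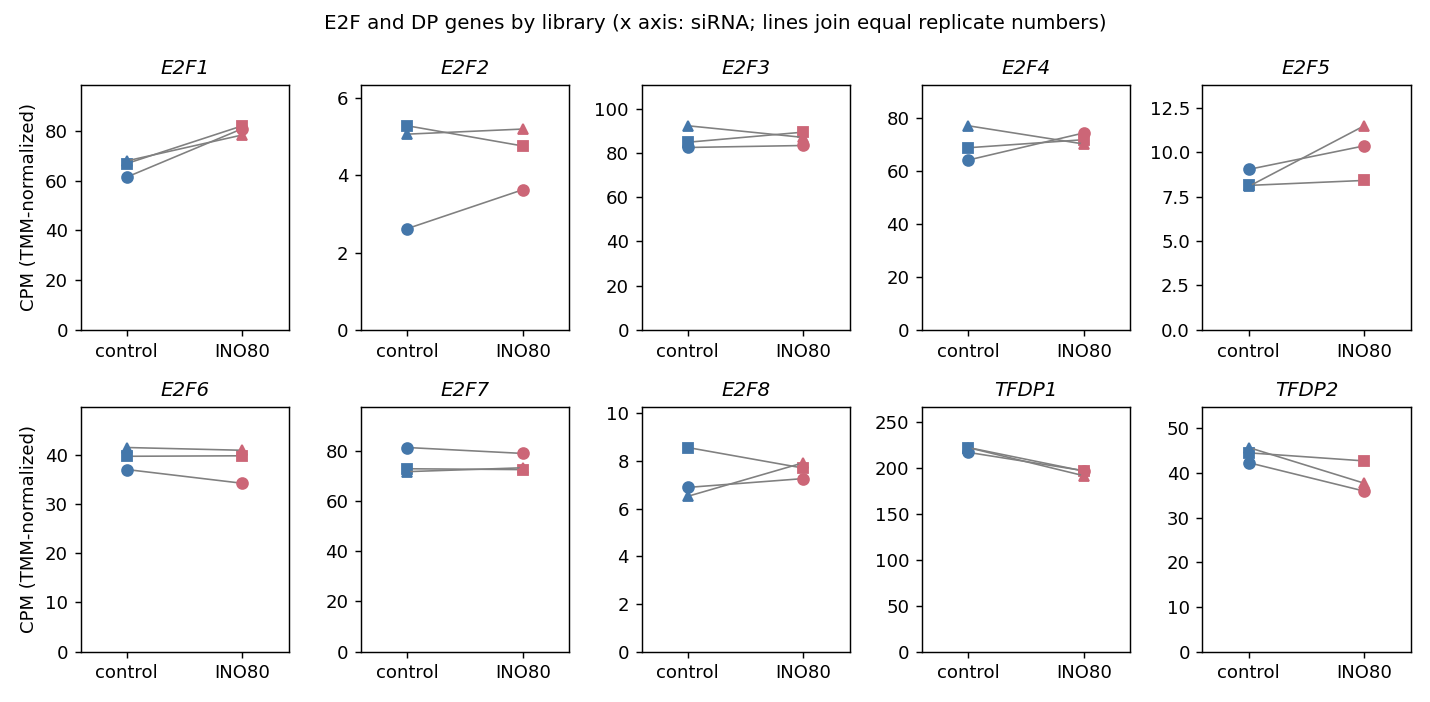
TMM-normalized CPM (y axis, from 0) of each gene in the control siRNA and INO80 siRNA libraries (x axis), with lines joining libraries of the same replicate number. All 3 lines rise for E2F1 and fall for TFDP1 and TFDP2, and the lines of E2F3, E2F4, E2F6 and E2F7 stay nearly flat or cross.

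The balance between DP and E2F transcripts was read within each library, where library scaling cancels. TFDP1 was 2.35, 2.21 and 2.18 times E2F1 in FPKM under control siRNA and 1.62, 1.595 and 1.63 times under INO80 siRNA. The INO80 siRNA libraries lay closer together than the control libraries and the groups did not overlap. Summed FPKM of TFDP1 and TFDP2 over that of E2F1 to E2F6, the E2Fs that pair with DP proteins, was 0.782 to 0.865 under control siRNA and 0.660 to 0.681 under INO80 siRNA. TFDP1 supplied 93.6% to 94.5% of the summed FPKM of TFDP1 and TFDP2 in all 6 libraries. That share rests on exon lengths of 3767 bases for TFDP1 and 11895 bases for TFDP2, and is overstated if TFDP2 uses a short transcript. In CPM, which is not scaled to length, the control means were 220.9 for TFDP1 and 44.2 for TFDP2. Within the summed FPKM of the 8 E2F genes, E2F1 took 28.7% to 29.9% under control siRNA and 32.75% to 33.8% under INO80 siRNA. The activators E2F1 to E2F3 together took 49.5% to 50.9% and 52.75% to 54.0%, again without overlap. E2F6 took 10.7% to 10.9% and 8.80% to 10.5%, lower under INO80 siRNA without overlap. Shares of the same sum depend on each other, so a higher share of E2F1 lowers the rest. The CPM of E2F6 itself overlapped between the groups (blocked log2 fold change -0.04, adjusted p = 0.675, edgeR). Of the activators, only E2F1 was called. The share of E2F4 and E2F5 overlapped, at 22.7% to 24.5% and 22.1% to 23.5%, as did that of the atypical E2F7 and E2F8, at 13.9% to 17.1% and 13.8% to 14.9%. These ratios and shares describe transcripts chosen with their direction known and were not tested. Non-overlap of ratios was not counted over all genes.

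**Figure D4:**
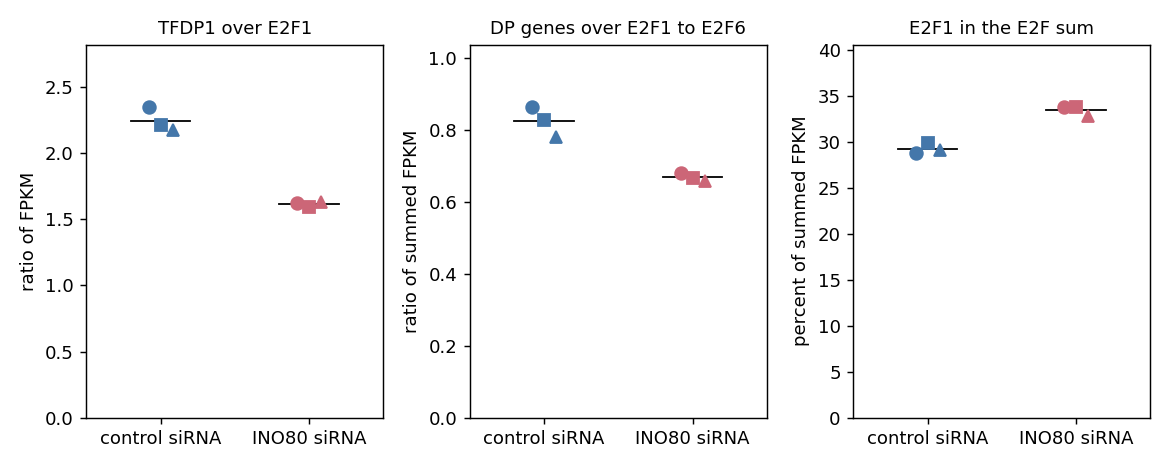
Ratio of TFDP1 to E2F1 FPKM, ratio of summed FPKM of TFDP1 and TFDP2 to that of E2F1 to E2F6, and E2F1 as a percentage of the summed FPKM of the 8 E2F genes (y axes, from 0), for each library of both groups (x axis), with the mean of 3 as a bar. In each panel the 3 INO80 siRNA libraries lie apart from the 3 control libraries, below them for the ratios and above them for the E2F1 share.

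Likeness of pattern was measured by Pearson's r of log2 CPM over the 6 libraries, which share 2 treatments and 3 replicate numbers, and is given as a description. Among 12695 genes with an average log2 CPM of at least 1, the genes most like E2F1 were KIAA0391 (ENSG00000100890, r = 0.998), MRPL55 (r = 0.998) and C20orf27 (r = 0.997). Their log2 fold changes were 0.82, 0.24 and 0.16, with adjusted p of 0.0579, 0.145 and 0.185 on treatment alone and 0.000876, 0.00707 and 0.00970 with the block (edgeR). The symbol KIAA0391 stands on 2 rows of the table, so reads may be split between them. Within the family TFDP1 and TFDP2 were most like each other (r = 0.794), and so were E2F3 and E2F6 (r = 0.759). The member most like E2F1 was E2F4, with r = 0.514 only, and the member most like E2F7 was E2F5 (r = 0.312).

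Among genes that E2F factors are known to switch on at the G1/S transition, those past the threshold with the block were mostly lower. Of 30 measured targets, 0 were higher and 1 was lower in the fit on treatment alone, against 0.261% and 1.49% of all tested genes. With the block 1 was higher, 9 were lower and 20 were not called, against 11.4% and 13.4% of all tested genes. The median log2 fold change over the 30 was -0.08, beside 0.01 over all tested genes, and 24 of the 30 values were below 0. With a pair of equal replicate numbers left out, the blocked fit called 11, 7 and 6 of them lower, in the order of pairs 1, 2 and 3. Over all genes those fits called 3978 of 15659, 2623 of 15439 and 2251 of 15409 in both directions together, against 3798 of 15343 with all pairs. MCM2, a subunit of the replicative helicase, was the called gene of the first fit. It was at 210.4, 279.3 and 265.1 CPM under control siRNA and at 95.35, 126.8 and 122.4 CPM under INO80 siRNA, a log2 fold change of -1.13 (adjusted p = 0.00852, edgeR). On treatment alone its adjusted p was 0.0527 without control siRNA replicate 2, 0.0630 without control siRNA replicate 3 and 0.0574 without INO80 siRNA replicate 3. CCNE2, a cyclin that activates CDK2 at S phase entry, was the 1 target that rose with the block. It was at 23.5, 23.9 and 20.5 CPM under control siRNA and at 28.7, 31.2 and 30.4 CPM under INO80 siRNA, a blocked log2 fold change of 0.41 (adjusted p = 6.83e-05, edgeR), or 0.0574 without the block. CCNE1, also an E-type cyclin, was not called (blocked log2 fold change -0.10, adjusted p = 0.336, edgeR). CDK2 had a blocked log2 fold change of -0.17 (adjusted p = 0.0069, or 0.338 without the block, edgeR). The helicase gene MCM5 and the maintenance methylation factor UHRF1 fell with the block, by 0.19 and 0.22 on the log2 scale (adjusted p = 0.000365 and 0.000476).

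The genes around the E2F factors were read in 5 further lists. On treatment alone edgeR called 0 of their 47 tested genes, and DESeq2 and limma without the block also called 0. In the edgeR fit 8 had an unadjusted p under 0.05, without a share over all tested genes to set beside it. The first list held 8 genes for pocket proteins, which hold E2F factors in check, for the MuvB core and for its activating partner MYBL2 (median log2 fold change -0.05), and RBL1 was not analysed here. With the block 0 of the 8 rose and 3 fell, where that fit called 11.4% of all tested genes higher and 13.4% lower. The 3 were RBBP4, a histone-binding subunit, and the MuvB subunits LIN9 and LIN52, with blocked log2 fold changes of -0.18, -0.26 and -0.34 (adjusted p = 0.00152, 0.00713 and 0.00732). Without pair 2 the adjusted p of LIN9 and LIN52 was 0.0772 and 0.142. The pocket protein genes RB1 and RBL2 had blocked log2 fold changes of 0.05 and 0.00 (adjusted p = 0.383 and 0.973). Of 9 partners of E2F6 in its polycomb complex, 1 was higher and 2 were lower with the block (median -0.04), beside those same shares of all tested genes. CBX3, a heterochromatin protein, had a log2 fold change of 0.11 (adjusted p = 0.0188), L3MBTL2 of -0.23 (adjusted p = 0.0111) and PCGF6 of -0.17 (adjusted p = 0.0424). Without pair 2 or without pair 3 the blocked fit called 0 of the 9, against 2623 of 15439 and 2251 of 15409 genes over all. PCGF6 was also lost without pair 1 (adjusted p = 0.0823).

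Among 7 tested genes of E2F-linked apoptosis, the median log2 fold change was 0.06, and the blocked fit called 2 higher and 1 lower (11.4% and 13.4% over all tested genes). The BH3-only genes BBC3 and BCL2L11 rose with blocked log2 fold changes of 0.55 and 0.26 (adjusted p = 0.000389 and 0.00737), and BCL2L11 was lost without pair 2 or pair 3 (adjusted p = 0.0694 and 0.0817). PMAIP1, also a BH3-only gene, fell by 0.31 on the log2 scale (adjusted p = 1.73e-05). APAF1 was not called, and HRK, with at most 5 counts in a library, was not tested.

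Upstream of the E2F factors, 13 cyclins, CDKs and CDK inhibitors had a median log2 fold change of 0.03, and the blocked fit called 2 higher and 4 lower (11.4% and 13.4% over all tested genes). CCND1 and CCND2, from the D-type cyclins that start pocket protein phosphorylation, had blocked log2 fold changes of -0.33 and -0.37 (adjusted p = 7.93e-07 and 1.86e-06). CCND3, also a D-type cyclin, was not called (blocked log2 fold change 0.09, adjusted p = 0.108, edgeR). CCND1 was at 235.6, 101.3 and 124.4 CPM under control siRNA and at 195.7, 80.4 and 95.1 CPM under INO80 siRNA, so replicate 1 was the high library of both groups. On treatment alone the log2 fold change of CCND1 was -0.31, and it was 0.13 without control siRNA replicate 1. Of the partner kinases of the D-type cyclins, CDK6 fell by 0.22 on the log2 scale (adjusted p = 1.48e-05). CDK4 was not called (blocked log2 fold change 0.05, adjusted p = 0.314, edgeR). The inhibitor CDKN2B rose by 0.27 on the log2 scale (adjusted p = 0.000797). On treatment alone the log2 fold change of CDKN2B was 0.28, and it was 0.005 without INO80 siRNA replicate 1 and 0.49 without control siRNA replicate 1. Of 10 mitotic genes (median 0.05), 3 rose and 1 fell with the block, beside the same 11.4% and 13.4%. CDK1, CCNA2 and CCNB1 rose by 0.14, 0.13 and 0.12 and PLK1 fell by 0.13 on the log2 scale (adjusted p = 0.0109, 0.0112, 0.0272 and 0.0244). Without pair 2 or without pair 3 the blocked fit called 0 of the 10, against 2623 of 15439 and 2251 of 15409 genes over all. CCNB1 was also lost without pair 1 (adjusted p = 0.0644).

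**Figure D5:**
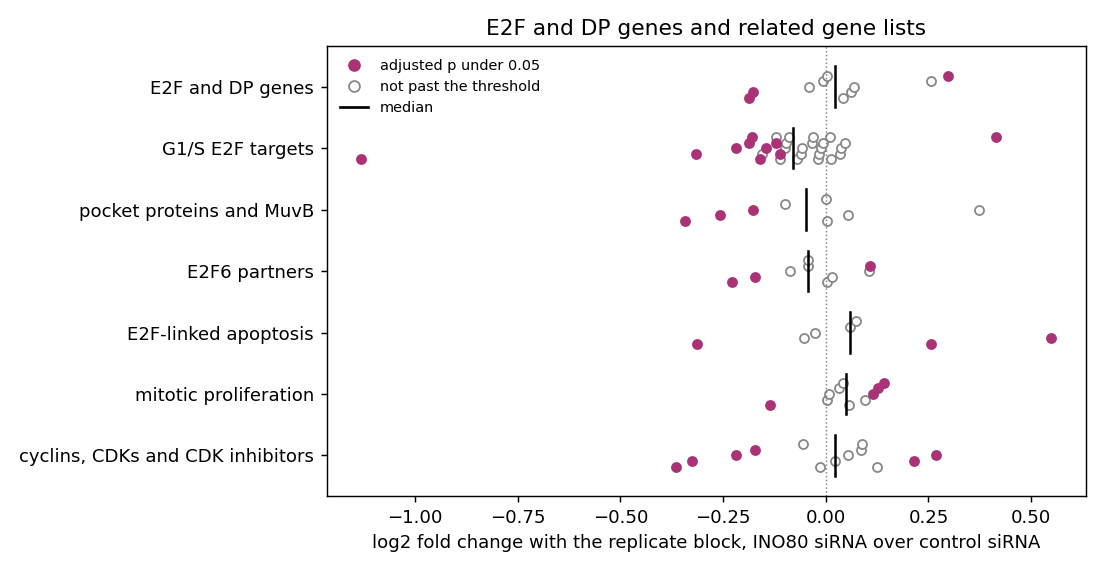
Blocked log2 fold change (x axis) of every tested gene of the E2F and DP family and of 6 related lists (y axis), filled where the adjusted p was under 0.05, with the list median as a bar. The G1/S targets gather below 0 with MCM2 at -1.13 and CCNE2 at 0.41, and the other lists hold called genes on both sides of 0 except the pocket protein and MuvB list, where the called genes are all lower.

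The cell type was checked by marker lists. Of 9 measured proximal tubule markers 1 (GGT1) had a mean FPKM of at least 1 and 2 (SLC22A6 and HNF4A) had 0 counts, so most defining markers of the tubule were at or near 0. The summed proximal tubule markers spanned 145.7 to 184.2 CPM under control siRNA and 162.4 to 194.3 CPM under INO80 siRNA. GGT1 alone was at 142.9 to 180.9 CPM and 160.0 to 190.6 CPM, so these sums are mostly GGT1. The 5 epithelial markers summed to 1181 to 1257 CPM under control siRNA and 1079 to 1286 CPM under INO80 siRNA. CDH1, with at most 10 counts in a library, was not tested. With the block 1 of the 4 tested was higher and 2 were lower, beside 11.4% and 13.4% of all tested genes. The sum of 4 fibroblast markers was 47.4 to 88.6 CPM and 54.7 to 108.9 CPM. COL1A1 and DCN were higher with the block (adjusted p = 0.000102 and 0.00771, edgeR). On treatment alone their adjusted p was 0.214 and 0.91 (edgeR). DCN was at 41.1, 7.0 and 6.4 CPM under control siRNA and at 47.65, 8.9 and 9.2 CPM under INO80 siRNA. PDGFRB was not called in either fit, and COL1A2, with at most 2 counts in a library, was not tested. The summed endothelial markers reached at most 0.147 CPM and the leukocyte markers at most 0.881 CPM in a library, with PTPRC, CD3E and KDR at 0 counts. Whether these markers play a part in the E2F and DP results was not tested.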

How the data were processed

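HK-2 cells were profiled by RNA-seq in 6 libraries, 3 per siRNA group, grouped by their titles. The authors deposited a table with the raw count of reads per gene, without normalization, and with FPKM, the count scaled to exon length and library total. The submitters' processing notes name HISAT2 2.0.1, HTSeq and hg19, the paper's methods name another aligner and build, and the table's coordinates are those of GRCh37. The strand setting is not given in the sources used here.

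Counts were tested in R 4.3.3 with edgeR 4.0.16 (filterByExpr, TMM, quasi-likelihood test on treatment) and adjusted by the Benjamini-Hochberg method over 15343 genes, with a call at an adjusted p under 0.05. Library totals ran from 16829273 to 23784599 counts, and 0 counts allow up to 3, for counting error only. Same-numbered libraries deviated together (correlation across genes 0.581, 0.365 and 0.360, against at most 0.152 for different numbers), so a fit blocked on the number is reported beside the first (the replicate block). The labels name no shared culture or day behind the numbers. Alternatives were other scaling and filters, DESeq2 1.42.0, limma 3.58.1 on log2(FPKM + 0.1) or log2(FPKM + 1), the block in each tool, each pair left out of the blocked fit, and each library left out. In data simulated with a pair effect, with 200 changed genes among 15343, edgeR recovered 199 without the block and 200 with it. Calls among the unchanged genes of those data are not given here. Whether the genes called only with the block include false calls was not tested. Recovery at folds as small as those of E2F1 and TFDP1 was not tested either.

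The 10 genes, the lists and the tests were chosen with earlier results of these data known. Named were all 10 members, INO80, MCM2, the 3 genes most like E2F1, the member most like each member, and at most 4 genes a list with the smallest blocked p among those called. RB1, RBL2, MYBL2, CDK2, COL1A1, DCN, GGT1 and the genes listed as not called, not tested or at 0 were named after their values were seen. Sequences come from RefSeq (GRCh38.p14). Columns of gene ontology terms were not used. Results for some genes of the lists are left out of the text.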

Additional observations from a re-analysis of the deposited data

How the results depend on the processing

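The fold changes of the 10 members, INO80 and 21 list genes, and the counts of calls, were recomputed under 18 alternatives, and the levels, ratios, likeness and marker sums were not. The direction of E2F1, E2F5, TFDP1 and TFDP2 was the same under all of them. E2F1 was called in 9 of the 18 (adjusted p from 6.29e-06 to 0.183), TFDP1 in 6 (1.73e-08 to 0.385), TFDP2 in 3 (0.0103 to 0.580) and the other 7 members in none. E2F2 was below the limit of a mean FPKM of at least 1, so that alternative gave it no value. The replicate block called 3798 genes over all, against 268 without it, 610 with DESeq2, 76 with limma, and 18 to 146 with 1 library left out, and the cause of the difference was not tested.

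Near-zero changes turned sign. With pair 1 left out of the blocked fit, the log2 fold changes were -0.0611 for E2F2, -0.00863 for E2F3, -0.0408 for E2F4 and 0.00774 for E2F7. That of E2F3 was -0.0369 without pair 2 and that of E2F8 -0.0489 without pair 3. E2F3 was at -0.00166 with median-ratio scaling and -0.00311 with a mean FPKM of at least 1. E2F7 was at 0.00403 without a filter, 0.0034 in limma on log2(FPKM + 0.1) with or without the block, and 0.0031 on log2(FPKM + 1). Leaving out single libraries gave ranges of -0.188 to 0.229 for E2F2, -0.0321 to 0.0459 for E2F3, -0.0161 to 0.113 for E2F4, 0.157 to 0.379 for E2F5, -0.0892 to 0.0341 for E2F6, -0.046 to 0.0508 for E2F7, -0.0257 to 0.188 for E2F8 and -0.806 to 0.13 for CCND1.

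Calls over all genes, both directions together, moved from 268 of 15343 to 3798 of 15343 with the edgeR block. They were 3978 of 15659, 2623 of 15439 and 2251 of 15409 without pairs 1, 2 and 3. Blocked DESeq2 called 1691 of 29137 and blocked limma 2294 of 15343. Unblocked counts were 610 of 29137 in DESeq2, 708 of 29137 without a filter and 313 of 12416 with a mean FPKM of at least 1. Counts of calls in the lists moved as follows, from 0 in each list in each direction except 1 lower among G1/S targets. Of the E2F and DP genes, 1 was higher without a filter, with a mean FPKM of at least 1, in DESeq2 and in every blocked fit (edgeR, edgeR with any pair left out, DESeq2, limma), and 2 were lower with the edgeR replicate block and without pair 1 or 2, against 1 without pair 3, in blocked DESeq2 and in blocked limma. Of the G1/S targets, 1 was higher without a filter, in DESeq2 and in every blocked fit, and 9 were lower with the edgeR block, 11, 7 and 6 without pairs 1, 2 and 3, 6 in blocked DESeq2, 7 in blocked limma and 0 to 1 with a library left out. Of the pocket protein and MuvB genes, 3 were lower with the edgeR block and without pair 1 or 3, and 1 without pair 2, in blocked DESeq2 and in blocked limma. Of the E2F6 partners, 1 was higher with the edgeR block, without pair 1 and in blocked limma, and 2 were lower with the edgeR block and 1 without pair 1. Of the apoptosis genes, 2 were higher with the edgeR block and without pair 1, and 1 without pair 2 or 3, in blocked DESeq2 and limma and without a filter, and 1 was lower in each of these fits. Of the mitotic genes, 3 were higher with the edgeR block and 2 without pair 1 and in blocked limma, and 1 was lower with the edgeR block and without pair 1. Of the cyclins, CDKs and inhibitors, 2 were higher with the edgeR block, without pair 3 and in blocked limma, 3 without pair 1 and 1 without pair 2 and in blocked DESeq2, and 4 were lower with the edgeR block, without pairs 1 or 3 and in blocked limma, 3 without pair 2 and in blocked DESeq2, and 1 without a filter. E2F2, E2F5 and E2F8 had the fewest counts of the members, 43 to 278 in a library, and the widest intervals.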
